A study of Mus musculus with 5 samples.

Results

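The imprinted fetal growth genes are 8 genes of the mouse, Igf2, H19, Dlk1, Peg3, Mest, Cdkn1c, Grb10 and Meg3, taken by name from the gene symbol that the platform annotation gives to each probe. Of the 8, 6 had a probe, on 17 probes in all, among 8452 named genes with a value on every array. H19 and Peg3 were matched to no probe, by symbol or by Entrez identifier, and were not analysed here. The members were compared as the ratio of macrophage RNA to whole embryo RNA on each of 5 two-colour cDNA arrays. The macrophages were grown from bone marrow of C3H/HeJ mice with human CSF-1, which drives that lineage; C3H/HeJ is a strain whose Tlr4, the receptor for bacterial lipopolysaccharide (LPS), carries an inactivating mutation. The 0 h cells had no LPS, and the others had 10 µg per ml of LPS from S. minnesota for 0.5, 2, 7 or 21 h, with 1 array a time and so no replicate. The reference on all 5 arrays was RNA of C57BL6/J whole embryos at 17.5 days, a mixture of every embryonic tissue and of another strain than the macrophages. The labels do not say whether cells or embryos were pooled.

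In genomic imprinting a gene is expressed mainly from the copy inherited from the mother or mainly from that of the father, through DNA methylation marks set in the germ line. Genes expressed from the paternal copy often promote fetal growth, and those from the maternal copy often restrain it. Igf2 encodes an insulin-like growth factor, Dlk1 a membrane protein related to Notch ligands, and Mest a hydrolase-like protein of mesoderm, all 3 from the paternal copy. Cdkn1c encodes the cyclin-dependent kinase inhibitor p57, Grb10 an adaptor that dampens insulin and IGF receptor signalling, and Meg3 a long non-coding RNA, mainly from the maternal copy in the embryo. Many of these genes are abundant in fetal tissues and decline after birth.

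Of the 8 members, 6 had a promoter window in the RefSeq table of build GRCm38.p6, 13 windows in all, each running from 250 bases before to 50 bases after an annotated start. The windows below belong to the 4 members with the lowest single probes at 0 h; they are shown because methylation of CG pairs is what imprinting acts through, and the capitals mark each CG. They are Igf2 at chr7:142657447-142657746 on the minus strand, Mest at chr6:30737800-30738099 on the plus strand, Meg3 at chr12:109540746-109541045 on the plus strand and Dlk1 at chr12:109452573-109452872 on the plus strand, each written 5′ to 3′ along the gene.
Igf2: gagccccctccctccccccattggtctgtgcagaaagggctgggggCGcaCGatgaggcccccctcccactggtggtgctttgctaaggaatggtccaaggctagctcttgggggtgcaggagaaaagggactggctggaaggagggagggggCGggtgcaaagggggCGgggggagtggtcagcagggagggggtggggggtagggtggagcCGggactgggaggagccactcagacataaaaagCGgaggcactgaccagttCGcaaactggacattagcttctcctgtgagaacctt
Mest: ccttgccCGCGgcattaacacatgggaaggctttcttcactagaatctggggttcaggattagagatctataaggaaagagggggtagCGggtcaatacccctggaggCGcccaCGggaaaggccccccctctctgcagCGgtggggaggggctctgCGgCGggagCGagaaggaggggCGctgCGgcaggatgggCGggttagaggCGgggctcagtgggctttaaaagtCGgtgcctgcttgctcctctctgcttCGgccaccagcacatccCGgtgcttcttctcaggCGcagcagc
Meg3: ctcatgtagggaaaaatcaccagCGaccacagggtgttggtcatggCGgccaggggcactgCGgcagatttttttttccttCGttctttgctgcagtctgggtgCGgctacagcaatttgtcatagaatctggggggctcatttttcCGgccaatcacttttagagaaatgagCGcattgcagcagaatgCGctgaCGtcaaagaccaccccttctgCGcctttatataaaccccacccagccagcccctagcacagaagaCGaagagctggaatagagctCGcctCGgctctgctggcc
Dlk1: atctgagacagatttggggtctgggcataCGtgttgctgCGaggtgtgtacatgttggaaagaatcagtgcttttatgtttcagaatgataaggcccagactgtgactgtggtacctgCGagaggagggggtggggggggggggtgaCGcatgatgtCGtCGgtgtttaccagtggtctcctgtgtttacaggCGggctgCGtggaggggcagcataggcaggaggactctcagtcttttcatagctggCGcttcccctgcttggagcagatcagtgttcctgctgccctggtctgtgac
The windows hold 7 CG pairs for Igf2, 17 for Mest, 13 for Meg3 and 9 for Dlk1, where the median of 32851 windows of the table was 7 and the upper quartile 20. Igf2, Mest and Meg3 have further annotated starts, with 2 to 24 CG pairs at the other Igf2 windows, 8 and 17 at those of Mest and 1 at that of Meg3. The palindrome TGACGTCA, searched on both strands, was found once each in the Meg3 window shown and in that of Peg3, and in 1.79% of all windows. The letters TATAAA lay on both strands of the Meg3 window, overlapping each other, and in no other window of a member, against 13.6% of all windows. GGGCGG occurred in windows of Mest, Igf2 and Grb10 and in 35.7% of all windows, and CCAAT in windows of Meg3, Igf2 and Peg3 and in 37.4%. Members are named where any of their windows held the letters, while the shares are per window, so they cannot be set against each other directly. The windows were taken at annotated starts and not as sites known to carry imprinting marks. Methylation was not measured on these arrays.

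Ratios are the deposited values, read as log10, after the median over genes of each array had been taken off; 0 is therefore the typical gene, and -0.301 a level 2-fold lower in macrophages than in the embryo. Neither the log base nor the numerator is given. The base was judged from 55 probes of globin genes, whose median of -1.47 at 0 h is 29.8-fold on the log10 reading and 2.78-fold if the values were log2. At 2, 7 and 21 h the same probes were 47.2-fold, 27.0-fold and 27.5-fold lower on the log10 reading. At 0.5 h the 53 globin probes with a value had a median of -0.10, or 1.25-fold if log10 and 1.07-fold if log2. The direction is likely macrophage over embryo: 14 macrophage genes had medians from 0.53 to 0.77 on the 5 arrays, and 85 genes of embryonic connective tissue, liver, blood, muscle and brain had medians from -0.66 to -0.48. None of the 8 members is in either list. Of the macrophage genes Cd68, Tyrobp and Ctsb lay below 0 on all 5 arrays, while Lyz2, the myeloid lysozyme, had a median of 1.20 and Lcp1, a leukocyte actin bundler, 1.37.

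The 0.5 h array stood apart. Across 18039 probes its correlation with the 0 h array was 0.49, while the later arrays gave 0.88, 0.85 and 0.77 in order of time. In stretches of 400 consecutive probe numbers its median was 0.51, with a range from -0.09 to 0.91. The medians of the later arrays were 0.88, 0.85 and 0.80, though the 21 h array also had stretches as low as -0.08. The pooled SD between probes of the same gene was 0.52 at 0.5 h and between 0.24 and 0.31 on the other arrays. Counts of genes low on all arrays and the order of the members are therefore given with and without that array; medians over arrays take in all 5 unless stated otherwise. No difference between arrays was tested, since each time had 1 array.

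At 0 h, 5 of the 6 measured members were at least 2-fold lower in macrophages than in the embryo, where 8.9% of all genes were. The same held for 4 of 6 at 0.5 h (all genes 17.0%), 5 of 6 at 2 h (12.9%), 4 of 6 at 7 h (8.02%) and 4 of 6 at 21 h (9.12%). No member was 2-fold higher on any array, where 8.99%, 23.4%, 13.4%, 12.6% and 9.67% of all genes were (here and below, 5 values in a row stand for 0, 0.5, 2, 7 and 21 h in that order). Dlk1, among the lower members at 0, 0.5 and 2 h, is the mean of 2 probes that disagree. Among probes with a value on all 5 arrays, taking the probe of highest mean ratio of each gene gave counts of lower members of 4, 3, 4, 4 and 4. With the probe of lowest mean ratio they were 5, 4, 5, 5 and 4. Both choices leave out Grb10 probe 16075, which read -0.10, 0.06 and -0.01 at 0, 7 and 21 h, so Grb10 was counted on its lower probe in each. Igf2, Grb10 and Meg3 were at least 2-fold lower on all 5 arrays, Grb10 only just so at 21 h (-0.305). Mest joined them when the 0.5 h array was left out. Among all genes 3.8% were that low on all 5 arrays and 4.76% on the other 4. The Grb10 value is that of probe 16723 alone, and its other probe was near 0 where it had a value. At 0.5 h the Meg3 mean was -1.01 with an SD of 1.67 over 4 probes, which ran from -2.69 to 1.11. The median of the members was -0.71, -0.52, -0.88, -0.61 and -0.56, and that of all genes is 0 by construction. Each array measures RNA of a whole culture against RNA of a whole embryo, so fewer cells that express a gene and less of its RNA per cell cannot be told apart.

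**Figure D1:**
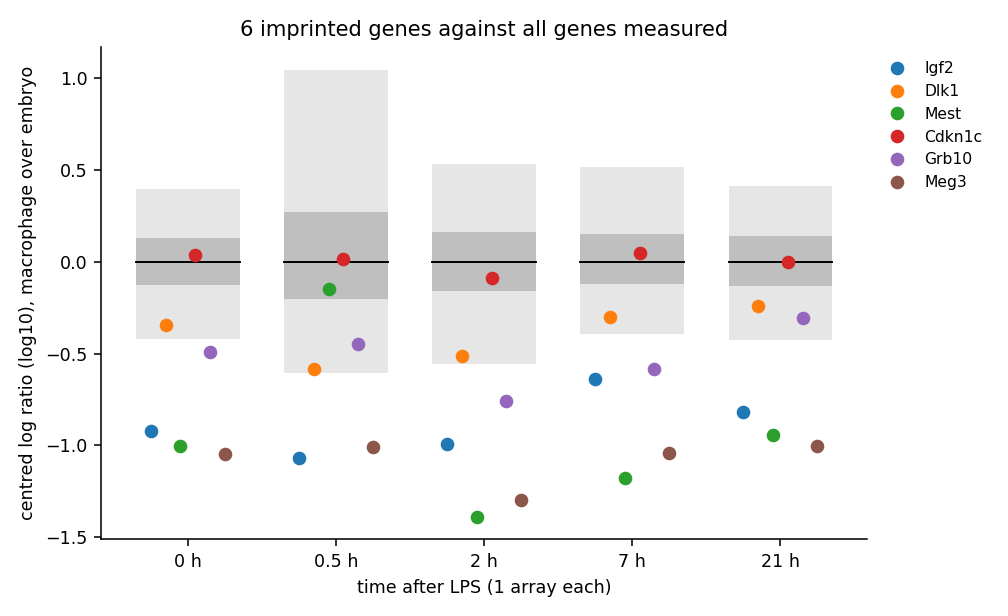
Centred log10 ratio of macrophage over embryo RNA on each array (1 array a time) for the 6 measured members (points) beside all 8452 genes (light bars from the 5th to the 95th percentile, dark bars the middle 50%, black line the median). Igf2 and Meg3 lie below the light bar on all 5 arrays, Mest on all but the 0.5 h array, and Cdkn1c inside the dark bar on every array.

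By their median over the 5 arrays the members ran from Meg3 (-1.04) through Mest (-1.004), Igf2 (-0.92), Grb10 (-0.49) and Dlk1 (-0.34) to Cdkn1c (0.02). Without the 0.5 h array Mest came first (-1.09) and Meg3 after it (-1.05), followed as before by Igf2 (-0.87), Grb10 (-0.54), Dlk1 (-0.32) and Cdkn1c (0.02). These are ratios to the embryo and not levels, so they do not say which gene has more RNA. On these 4 arrays the SD over times was 0.20 for Mest, 0.13 for Meg3, 0.15 for Igf2, 0.19 for Grb10, 0.12 for Dlk1 and 0.06 for Cdkn1c. Mest and Meg3 lay closer together than the SD of either. Each of the other neighbours in the order was apart by more than the SD of both, Igf2 from Meg3 and Dlk1 from Grb10 by only slightly more, and Dlk1 rests on a pair of probes that disagree. These SDs include any change with time.

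Igf2, the fetal growth factor of the IGF axis, was measured by 2 probes of the same RefSeq transcript. Probe 1796 read -0.92, -1.07, -0.99, -0.64 and -0.82. Probe 15840 had no value at 0.5 h and read -1.02, -1.11, -0.91 and -0.83 on the remaining arrays, so that the gene value used elsewhere rests on probe 1796 alone. Both probes were low on every array that measured them, and the 2 probes kept within 0.265 of each other. At 0 h Igf2 was 8.34-fold lower than in the embryo on the log10 reading (1.89-fold if log2), with 0.947% of all genes lower still. Its window shown above is one of 4 annotated starts, and the arrays do not tell which start was used.

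Meg3, the maternally expressed non-coding RNA next to Dlk1, had 4 probes, each annotated to EST sequences that it shared with no other Meg3 probe. Probe 2904 read -1.73, -2.69, -2.06, -1.71 and -1.30. Probe 3872 read -1.53, -1.91, -1.74, -1.48 and -1.51. These 2 were the lowest probes of all members at 0 h, and every array put both far below 0. Probe 924 was closer to 0, at -0.40, -0.53, -0.50, -0.19 and -0.38. Probe 16840 read -0.53, 1.11, -0.88, -0.78 and -0.82; at 0.5 h it was the highest of all member probes. The probes of Meg3 differed by 1.33 in their medians over arrays, more than in 98.2% of the 282 genes with 4 probes, whose median range was 0.34. All 4 were below 0 on the 0, 2, 7 and 21 h arrays. The gene mean was -1.05 ± 0.68 at 0 h (SD over 4 probes), which is 11.2-fold lower than in the embryo on the log10 reading and 2.07-fold if log2. The SD between probes is the only error these arrays give, and it holds no spread between cultures.

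Mest, also called Peg1, had 4 probes of the same RefSeq transcript. Probe 17128 was the lowest, at -1.42, -0.21, -2.01, -1.59 and -1.46. Probe 15018 read -0.84, 0.19, -1.21, -1.29 and -0.88, and probe 16530 read -0.93, 0.22, -1.38, -1.06 and -1.05. Probe 16432 read -0.82, -0.79, -0.97, -0.78 and -0.38 and was the 1 probe of Mest that stayed near its 0 h value at 0.5 h. All 4 probes were low at 0, 2, 7 and 21 h. The gene mean was -1.004 ± 0.28 at 0 h (SD over 4 probes) and -1.39 ± 0.45 at 2 h, or 10.1-fold and 24.5-fold lower than in the embryo on the log10 reading. At 7 h 0.308% of all genes lay below Mest, the most extreme place of any member on any array.

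**Figure D2:**
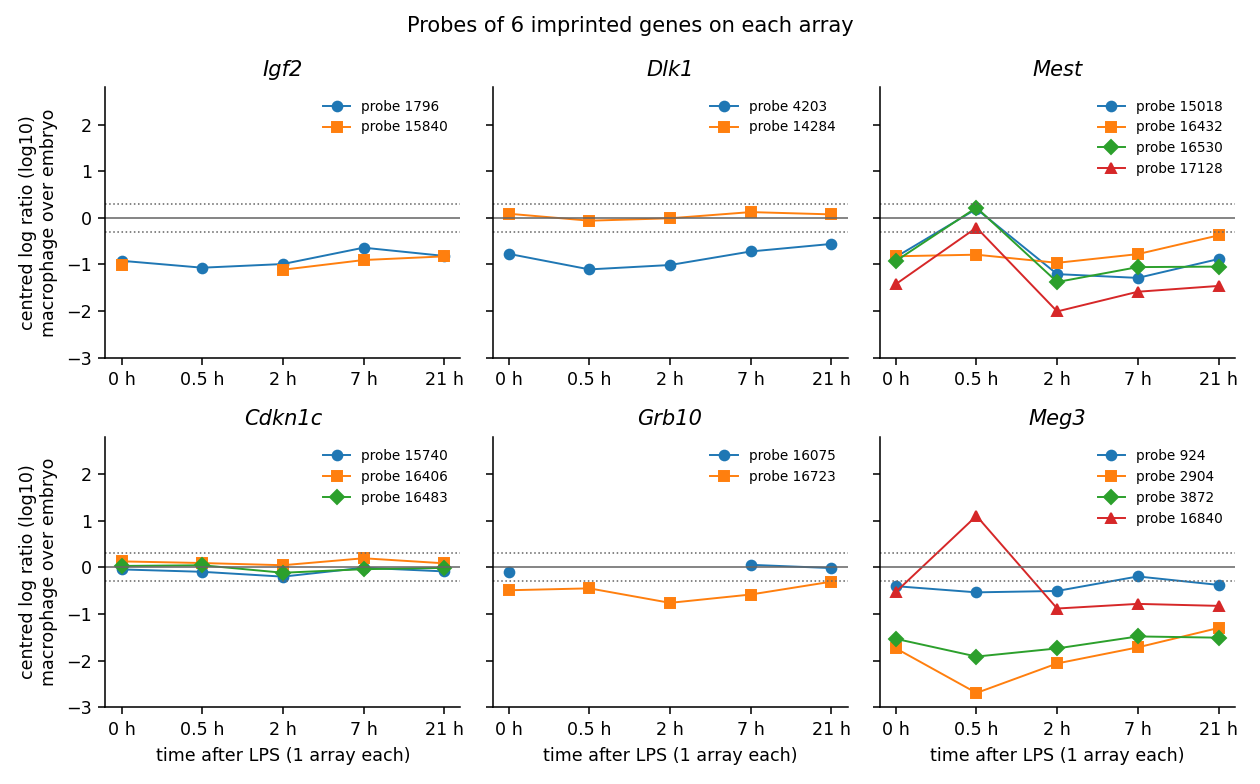
Centred log10 ratio of macrophage over embryo RNA for each probe of the 6 measured members at each time (1 array each); the solid line is 0, and the dotted lines mark a 2-fold ratio on the log10 reading. The probes of Igf2 and Cdkn1c lie close together, those of Dlk1 and Meg3 lie far apart, and 3 Mest probes and Meg3 probe 16840 stand higher at 0.5 h than on the other arrays.

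Dlk1, which restrains fat cell differentiation and is cleaved to a soluble form in the fetus, differed between its 2 probes, which are annotated to the same RefSeq transcript. Probe 4203 read -0.77, -1.11, -1.01, -0.72 and -0.56. Probe 14284 read 0.09, -0.06, -0.01, 0.12 and 0.07. The first was low on every array and the second near 0 on every array, a range of 0.85 between probes that 96.9% of 1826 genes with 2 probes did not reach (median range 0.18). The mean of -0.34 ± 0.61 at 0 h (SD over 2 probes) therefore stands for neither probe, and the files do not say which of the 2 spots measured the transcript. At 7 h (-0.30) and 21 h (-0.24) the mean was just short of the 2-fold size.

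Grb10, the adaptor that binds insulin and IGF receptors, was low on probe 16723, at -0.49, -0.45, -0.76, -0.58 and -0.31. Probe 16075, annotated to the same clone, had no value at 0.5 and 2 h and read -0.10, 0.06 and -0.01 on the remaining arrays. The gene value of Grb10 is that of probe 16723 alone. At 21 h that probe was only just past the 2-fold size. With every probe that had a value, 2 members in place of 3 were low on all 5 arrays, and 3 in place of 4 at 7 h and at 21 h. Without centring 2 members were low on all 5 arrays, with 5 in place of 4 at 7 h and 3 in place of 4 at 21 h.

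Cdkn1c, the p57 inhibitor of cyclin-dependent kinases, was the member at the level of the typical gene. Its 3 probes read -0.04, 0.13 and 0.03 at 0 h and -0.20, 0.05 and -0.11 at 2 h, where they were lowest. Over all 5 arrays the 3 probes stayed between -0.20 and 0.20. The gene mean was 0.04 ± 0.09 at 0 h (SD over 3 probes), with 58.4% of genes lower, and its range over the 5 arrays was 0.14. A ratio near 0 says that RNA signal was alike on both sides relative to the typical gene; without spot intensities a probe with little signal in either channel would also read near 0. The same holds for Dlk1 probe 14284 and Grb10 probe 16075.

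The next comparison asked whether the members changed after LPS, as the difference of each array from the 0 h array that all 4 times share. At 2 h 1 of 6 members, Mest, was at least 2-fold lower than at 0 h (-0.39 ± 0.19, SD over 4 probes), where 2.58% of all genes were, and none was higher (all genes 4.24%). The differences of the others at 2 h were -0.27 for Grb10, -0.25 ± 0.12 for Meg3 (SD over 4 probes), -0.17 ± 0.10 for Dlk1 (2 probes), -0.13 ± 0.04 for Cdkn1c (3 probes) and -0.07 for Igf2. All 6 were negative, with a median of -0.21 against -0.01 for all genes. The embryo lists had medians of the same sign at 2 h, -0.23 for connective tissue, -0.22 for liver plasma proteins, -0.14 for erythroid, -0.10 for muscle and -0.09 for neural genes, while the macrophage list was at 0.10. Ratios also spread more widely at 2 h, with an SD across probes of 0.41 against 0.33 at 0 h; the part of that width in the 2 h differences was not tested. Scaled to one median absolute deviation, or quantile normalized, the count of members lower at 2 h was 0.

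At 7 h no member was past the 2-fold size in either direction (all genes 3.35% higher and 1.4% lower). Igf2 came nearest, at 0.28 on probe 1796 and 0.11 on probe 15840, and Mest was at -0.17 ± 0.20 (SD over 4 probes). With the arrays scaled to one median absolute deviation, or with the running median over probe numbers taken off, 1 member was 2-fold higher at 7 h. At 21 h again none was past it (all genes 4.33% higher and 4.69% lower). The differences at 21 h were 0.18 for Grb10, 0.10 for Igf2, 0.10 ± 0.16 for Dlk1, 0.06 ± 0.26 for Mest, 0.05 ± 0.30 for Meg3 and -0.04 for Cdkn1c, with SDs over 2 probes for Dlk1 and 4 for Mest and Meg3. For Dlk1, Mest and Meg3 the spread between probes exceeded the difference.

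**Figure D3:**
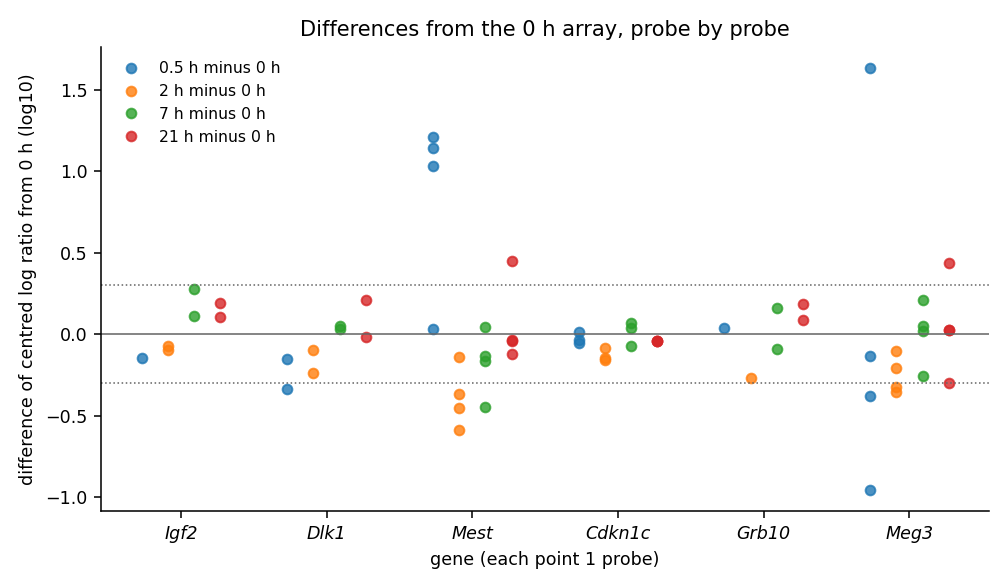
Difference of each probe's centred log10 ratio from its value on the 0 h array, by gene and time; each point is 1 probe and the dotted lines mark a 2-fold difference. The probes of Cdkn1c stay within 0.2 of 0 at all times, those of Mest are all below 0 at 2 h, and the widest scatter is at 0.5 h in Mest and Meg3.

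At 0.5 h Mest was the 1 member past the size rule, higher than at 0 h by 0.86 ± 0.55 (SD over 4 probes), where 19.9% of all genes were higher and 10.6% lower. Probes 15018, 16530 and 17128 differed by 1.03, 1.15 and 1.21, and probe 16432 by 0.03. Meg3 averaged 0.04 with an SD of 1.12 over its 4 probes, from -0.96 on probe 2904 to 1.63 on probe 16840. Dlk1 differed by -0.24 ± 0.13 (SD over 2 probes), Igf2 by -0.15, Grb10 by 0.04 and Cdkn1c by -0.02 ± 0.03 (3 probes). Around the 4 probes with the highest differences, the correlation of neighbouring probes between the 0.5 h and 0 h arrays was 0.29 at probe 15018, 0.05 at 16530, 0.12 at 17128 and 0.02 at 16840. Around Meg3 probes 924 and 3872, Igf2 probe 1796 and Dlk1 probe 4203 it was between 0.76 and 0.82. Around Meg3 probe 2904, which had the lowest difference of all member probes, it was 0.59. Small differences also stood where the correlation was low: it was 0.18 around Mest probe 16432, -0.04 around Grb10 probe 16723, 0.33 around Dlk1 probe 14284 and between 0.10 and 0.21 around the 3 Cdkn1c probes. The part of array position in the 0.5 h values was not tested beyond this.

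**Figure D4:**
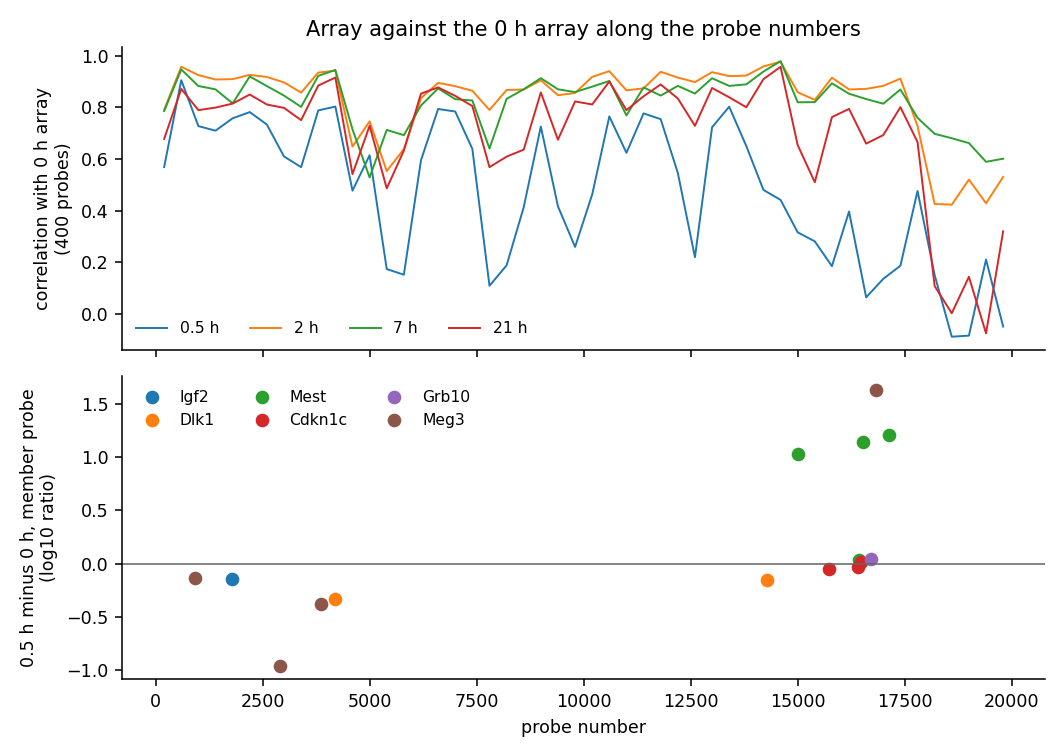
Above, the correlation of each array with the 0 h array in 50 stretches of 400 probe numbers; below, the difference of each member probe at 0.5 h from 0 h (log10 ratio) against its probe number. The 4 high member differences lie at high probe numbers, where the 0.5 h correlation (blue) is mostly below 0.5, beside 5 member probes with differences near 0.

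The other imprinted genes on the arrays did not share one level. Of 68 listed, 26 were measured, with list medians from -0.14 to -0.07 on the 5 arrays. On all 5 arrays 2 of the 26 were at least 2-fold lower (all genes 3.8%) and none was higher (all genes 2.32%). The 2 were Dcn, the matrix proteoglycan decorin (median -0.77 over arrays, 3 probes), and Nap1l5, a nucleosome assembly protein-like gene (-0.53, 1 probe). Plagl1, a zinc finger regulator of the imprinted gene network, read -0.81, -0.71, -0.54, -0.60 and -0.18, and was short of the 2-fold size at 21 h alone. Nnat, the neuronal proteolipid neuronatin, read -0.53, 0.22, -0.56, -0.50 and -0.33. It was low on every array but that of 0.5 h, and made the count 3 of 26 without that array (all genes 4.76%). Ndn, the neuronal growth suppressor necdin, had a median of -0.35. The highest were Nap1l4 (0.33), Blcap (0.29) and Casd1 (0.26), none past the 2-fold size on all arrays. Nap1l4 read -1.07 at 0.5 h.

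The genes that act with Igf2 were spread around 0 or slightly above it. Of 36 genes of the IGF axis 18 were measured, with list medians from 0.05 to 0.15. None was 2-fold lower on all 5 arrays (all genes 3.8%) and 1, Igfbp5, on the 4 without 0.5 h (all genes 4.76%). The gene means of Igf2bp1, an RNA-binding protein that binds Igf2 mRNA (median 0.49, 2 probes), and Pappa2, a protease of IGF binding proteins (0.36, 6 probes), were 2-fold higher on all 5, as were 2.32% of all genes. The probes of both disagreed, with SDs between probes from 0.39 to 0.87 for Igf2bp1 and from 0.39 to 0.47 for Pappa2. The SD exceeded the gene mean on every array for Pappa2, and at 0.5, 2 and 21 h for Igf2bp1. At 0.5 h Igf2bp1 was only just past the 2-fold size (0.306). The lowest by median were Igfbp5, an IGF binding protein of bone and muscle (-0.62, 3 probes), Igf2bp3 (-0.32) and Grb7, of the Grb10 family (-0.24). Igfbp5 was at -0.64 at 0 h and -0.22 at 0.5 h. The highest were Pik3r1, a regulatory subunit of PI 3-kinase (0.50), Igf2bp1 and Igfbp4 (0.39). Igf1, the other insulin-like growth factor, named here after its values were seen, read 0.21, 0.38, 0.56, 0.20 and 0.53 on 1 probe. It was above 0 on every array, where Igf2 was below 0 on every array. No probe was matched to Igf1r or Igf2r.

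Among 12 measured genes of the cell cycle control that Cdkn1c belongs to, Ccnd1, the cyclin D1 that CSF-1 signalling induces (median 0.77, 3 probes), and Cdk6, a partner of cyclin D (0.59), were 2-fold higher on all 5 arrays and none was lower. Of all genes 2.32% were that high and 3.8% that low on all 5. Cdkn1a, the p21 inhibitor, had a median of 0.20, and Ccnd2 was the lowest at -0.29. The list medians ran from -0.01 to 0.06. Of 14 measured genes of the Notch pathway, to which Dlk1 is related, none was 2-fold lower or higher on all 5 arrays or on the 4 without 0.5 h. Their list medians ran from -0.08 to 0.09, and to 0.01 at most without the 0.5 h array. Dll1, a Notch ligand of the embryo, was the lowest at -0.42, followed by Dll3 (-0.29) and Jag2 (-0.23), and Dll4 (0.23), Rbpj (0.21) and Mfng (0.11) were the highest. Dll4 read 1.80 at 0.5 h and between -0.28 and 0.41 on the other arrays. Jag2 read 0.39 at 0.5 h and 0.62 at 21 h, and between -0.37 and -0.23 on the other arrays.

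**Figure D5:**
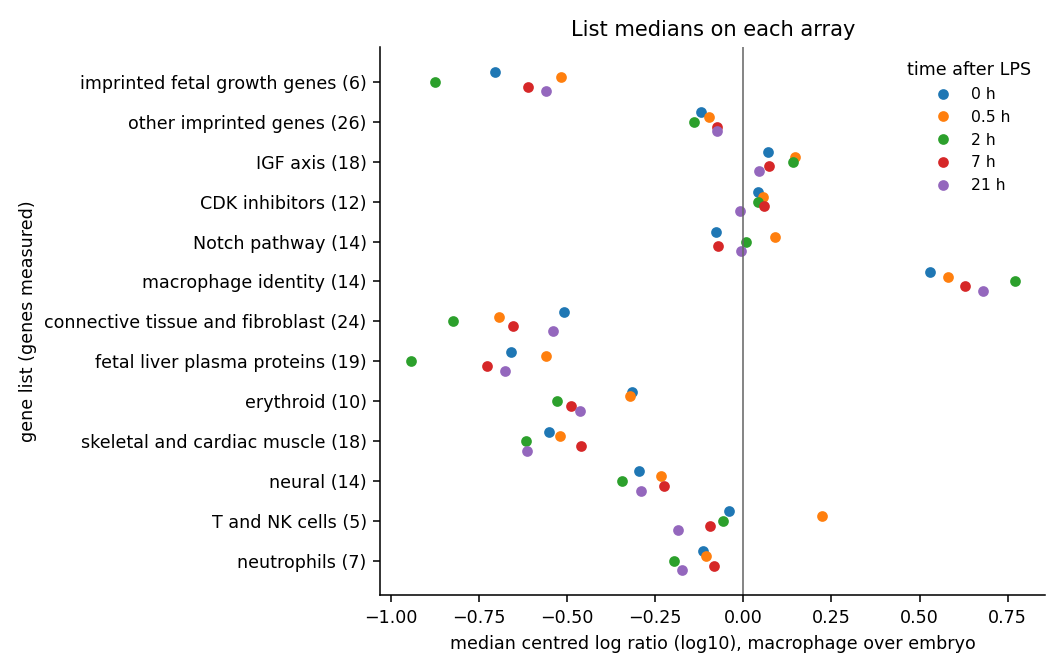
Median centred log10 ratio of each gene list with at least 5 measured genes (their number in brackets) on each of the 5 arrays. The imprinted fetal growth genes lie between -0.88 and -0.52, in the range of the connective tissue and liver lists, while the other imprinted genes and the IGF axis lie near 0.

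The tissue lists give the scale of an embryonic gene on these arrays. Connective tissue genes had medians from -0.82 to -0.51, with 13 of 24 at least 2-fold lower on all 5 arrays, and fetal liver plasma proteins from -0.94 to -0.56, with 12 of 19. Muscle genes had 11 of 18, erythroid genes 3 of 10 and neural genes 4 of 14, beside 3 of the 6 members and 3.8% of all genes. Without the 0.5 h array the counts were 14 of 24 for connective tissue, 13 of 19 for liver, 14 of 18 for muscle, 4 of 10 for erythroid and 5 of 14 for neural genes, beside 4 of the 6 members. Of all genes 4.76% were that low without it. The lowest of each list by median were Fstl1 (-1.84), Alb (-1.63), Myl1 (-1.60), Hbb-b1 (-1.81) and Gap43 (-1.17), in the order connective tissue, liver, muscle, erythroid and neural. Stromal cells could also be part of a bone marrow culture: the connective tissue list was not near 0 as a whole, though Pdgfra (0.02), Twist2 (-0.04), Mfap5 (-0.04) and Pdgfrb (0.08) were by median, and Twist1 was above 0 on every array (0.22). As for Cdkn1c, a probe with little signal in either channel would also read near 0, and 13 of the 24 genes were low on all 5 arrays. The part of stromal cells in the members' ratios was not tested. Of other blood cells, neutrophil genes had medians from -0.20 to -0.08 and T and NK cell genes from -0.19 to 0.22, or from -0.19 to -0.04 without the 0.5 h array. In B cells 2 genes were measured and in mast cells 4, with medians from -0.64 to -0.25 and from -0.37 to -0.17. The 3 measured placental genes had medians from -0.13 to 0.01.

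For each member the 2 genes of most similar pattern were taken by the root mean square difference over the 5 arrays, among 2964 other genes with at least 2 probes. They were Klhl13 (0.08) and Ptgds (0.10) for Igf2, Calm4 and Kng1 (both 0.06) for Meg3, and Tpm2 (0.20) and Fgb (0.22) for Mest. They were Cox8a (0.03) and Csrp2 (0.05) for Dlk1, Csrp3 and Pkia (both 0.10) for Grb10, and Ube2f (0.02) and Cad (0.03) for Cdkn1c. The patterns matched were gene means, which for Dlk1 and Meg3 join probes that disagree. Ptgds encodes a prostaglandin D synthase, Kng1 and Fgb are plasma protein genes of liver, and Tpm2 and Csrp3 are muscle genes. The gene nearest to Mest was farther off than the nearest gene of any other member.

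Imprinted genes lie in clusters, and the order of genes in the RefSeq table of GRCm38.p6 was used to look beside the members, a step chosen after their values had been seen. Igf2 and H19 lie together on chromosome 7 and Dlk1 and Meg3 together on chromosome 12, in both cases with no protein-coding gene between them. Of 44 other genes, the nearest 5 measured on each side of a member, 3 were at least 2-fold lower on all 5 arrays, where 3.8% of all genes were. These were the muscle troponin gene Tnni2 beside Igf2, Cttn beside Cdkn1c and Upp1 beside Grb10, and the median of the 44 was 0.01. Without the 0.5 h array the count was again 3 (all genes 4.76%). By median over arrays the 9 neighbours of Igf2 that are no members ran from -0.61 (Tnni2) to 0.37 (Lsp1, a leukocyte actin-binding protein). The nearest on either side were Mrpl23 at -0.06 and Ins2 at 0.08, and the muscle troponin gene Tnnt3, next after Mrpl23, was at -0.48 and 2-fold lower on 4 arrays. The 9 neighbours of Dlk1 ran from -0.31 (Eml1, 2-fold lower on 3 arrays) to 0.22 (Ppp2r5c). The nearest to the pair were Wars at 0.16, beside Dlk1, and 6430411K18Rik at -0.17, beside Meg3.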

How the data were processed

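The authors deposited a processed log ratio for every probe of an array, which was read as log10. For base, centring, scanner, background and normalization the method is not given in the sources used here; the numerator is likely macrophage. Per the labels, RNA was labelled by an indirect amino-allyl method with Cy3; spot intensities were not used, so signal over background is unknown. Deposited medians ran from 0.00 to 0.07 over the arrays, and values per array from 18724 to 19674 of 19828 probes. Of these probes 14759 had 1 symbol, 170 several and 4899 none. Probes with 1 symbol and a value on all 5 arrays were averaged per gene, and the median of 8452 genes was taken off each array; 15 of the 17 member probes passed. A gene was counted as higher or lower at a 2-fold size, which is 0.301 on that scale. Nothing was tested, because each time had 1 array; the number of arrays limits the precision.

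The members and lists were chosen with earlier results of these data known. Named genes were the 8 members, the 3 lowest and 3 highest of each related list by median, list genes past the 2-fold size on all arrays, the lowest gene of each tissue list, and the 2 nearest genes in pattern with at least 2 probes; others are marked in the text or stand as examples. List genes were also matched through Entrez identifiers where the platform name is old. The steps were run on simulated data, and how often they miscall a gene on these arrays was not tested. Alternatives were centring, scaling, probe order, joining of probes, missing values, log base, fold size and baseline. Scripts ran under Python 3.11.15 with pandas 2.3.3, numpy 2.4.6 and matplotlib 3.10.9.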

Additional observations from a re-analysis of the deposited data

Results flagged for a closer look

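On 3 member probes the ratio lay on opposite sides of 0 at 0.5 h and 0 h, with at least 1 of the values past the 2-fold size. Mest probe 15018 was at 0.19 at 0.5 h and -0.84 at 0 h, and Mest probe 16530 at 0.22 and -0.93. Meg3 probe 16840 was at 1.11 and -0.53. Each of these differences between times rests on 1 array a time and was not tested. On the 2, 7 and 21 h arrays the 3 probes were all below -0.78.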

How the results depend on the processing

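Of 339 comparisons of 26 results with an alternative, 303 left the result the same, which for a count means within 1.5 times and for a ratio within the spread between probes. That total takes in counts that were 0 under both settings, and updated gene symbols, which returned every value unchanged. Meg3 at -1.70 with its lowest probe also counted as the same, because its spread was 0.68. The total therefore does not measure how firm the results are. The counts of members lower than in the embryo depended on the log base: read as log2, with a size rule of 1, they were 2 at 0, 0.5, 2 and 7 h and 1 at 21 h, 1 on all arrays, and differences from 0 h numbered 0 higher at 0.5 h and 0 lower at 2 h. With the sign turned the macrophage list median at 0 h was -0.53, and every direction here would turn. With the probe of highest mean ratio Dlk1 had a median of 0.0394 in place of -0.34, with the lowest probe Mest had -1.42 in place of -1.004, and with the running median below removed Cdkn1c had -0.07 in place of 0.02. Members higher than at 0 h numbered 3 at 0.5 h and 1 at 7 h with arrays scaled to one median absolute deviation, where 0 were lower at 2 h, as after quantile normalization. With a running median over 400 probe numbers removed, 1 was lower at 0.5 h and 1 higher at 7 h. With the lowest probe of each gene 1 was lower at 0.5 h, 2 lower at 2 h and 1 higher at 21 h, with the highest probe 1 was higher at 21 h, and with every valued probe 2 were lower at 2 h. At a size of 1.5-fold 1 was lower at 0.5 h, 3 lower at 2 h, 1 higher at 7 h and 1 higher at 21 h, and at 3-fold 0 were lower at 2 h. Against the 0.5 h array 2 were lower at 2 h, and 1 higher and 1 lower at both 7 and 21 h; against the mean of the other 4 arrays 2 were lower at 2 h and 1 higher and 1 lower at 7 h. Leaving out the 0.5 h array, chosen after seeing the data, gave 4 members low on all arrays in place of 3. Apart from these counts, the cause of the changes was not tested. No paired analysis was possible because each time had 1 array and the labels give no replicate numbers.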
